A study of Mus musculus with 81 samples.

Results

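The gamma and delta T-cell receptor segments are the gene pieces that build the receptor of gamma-delta T cells. They were taken as every symbol of the count table that starts with Trg followed by v, j or c, with Tcrg, or with Trd followed by v, d, j or c. This gave 25 of 51826 genes, 14 of the gamma locus (6 V, 4 J and 4 constant genes) and 11 of the delta locus (6 V, 2 D, 2 J and 1 constant gene). RNA sequencing was done on frozen thymic tissue of 40 mice in 81 libraries. All mice were C57BL/6 x 129S4Sv/Jae and carried Plk4(Col1a1), rtTA(Rosa) and centrin-GFP(Rosa), a doxycycline-driven copy of the centriole kinase gene Plk4 and its activator; the series examined how aneuploidy affects tumour development. Normal thymus came from 8 p53+/+ mice without treatment (1 library each) and from 1 p53+/- mouse without treatment. Thymic lymphomas came from 10 p53-/- mice without treatment (23 libraries), 9 p53-/- mice given doxycycline for 2 weeks from 30 days of age (18 libraries), and 12 p53+/- mice with the same treatment (31 libraries). Labelled males were 9 of 10, 4 of 9 and 3 of 12 of these mice in that order, and 4 of the 8 p53+/+ normals. No group of untreated p53+/- lymphomas and no doxycycline-treated normal thymus entered the comparisons, so treatment and genotype cannot be separated from tumour against normal tissue. The age at collection was not analysed here. The mouse was the unit of replication: biopsies of 1 tumour were summed.

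As background, a developing thymocyte assembles its receptor by joining V, D and J segments with the RAG recombinase. A gamma chain pairs with a delta chain in gamma-delta T cells, and an alpha chain pairs with a beta chain in alpha-beta T cells. The delta locus lies inside the alpha locus, between its V and J segments, so that joining an alpha V to an alpha J segment removes the delta D, J and constant genes from that chromosome. The gamma locus is on another chromosome, and alpha-beta T cells can keep gamma joins, which are not removed by this step.

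Libraries held 1030400 to 26871729 counts. In 3 of 40 mice (328, 869 and 870, all lymphomas) the sex genes went against the labelled sex, and the tests were also run with the sex read from expression. One normal thymus, of mouse 387, had low T-lineage markers (7 genes summed to 620 CPM, counts per 1000000 counts, against 3397 to 5326 in the other 7) and high markers of B cells (1307 CPM against 86.6 to 183) and fat (8934 CPM against 945 to 4615). The lymphoma of mouse 881 (p53-/-, untreated) had T-lineage markers of 323 CPM against 1851 to 4961 in the other 30 lymphomas, and B-lineage markers of 3340 CPM against 11 to 467. Thymic epithelium markers summed to 110 to 2618 CPM in normal thymus and to 7.64 to 337 CPM in lymphomas. In such bulk tissue, fewer cells of a type and less RNA per cell cannot be told apart. Myeloid markers ran from 384 to 1940 CPM in normal thymus and from 437 to 1969 CPM in lymphomas. The part of these cell types in the results below was not tested.

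The gamma locus lies on chromosome 13 in 4 clusters, each with its own constant gene (coordinates from GENCODE M21, build GRCm38, which is mm10). In order, cluster 1 holds Tcrg-V7, Tcrg-V4, Tcrg-V6, Tcrg-V5, Trgj1 and Tcrg-C1. Cluster 3 holds Tcrg-V3, Trgj3 and Tcrg-C3, cluster 2, on the minus strand, holds Trgv2, Trgj2 and Tcrg-C2, and cluster 4 holds Trgj4 and Tcrg-C4. A further V segment of cluster 4, Tcrg-V1, was not analysed here. Tcrg-C1 spans chr13:19214103-19217024, Tcrg-C2 chr13:19304649-19307551 and Tcrg-C4 chr13:19344558-19352756. The first 60 bases of each constant gene are shown as a sample of how alike the constant genes are, since the split of gamma counts between them rests on the few bases that differ along the whole transcripts. Each is exonic, written 5′ to 3′ on the gene's strand, and capitals mark the bases that differ from Tcrg-C1.
Tcrg-C1 (chr13:19214103-19214162, plus strand): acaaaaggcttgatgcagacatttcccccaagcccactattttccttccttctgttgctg
Tcrg-C2 (chr13:19307492-19307551, minus strand): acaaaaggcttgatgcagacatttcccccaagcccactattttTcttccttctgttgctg
Tcrg-C3 (chr13:19260885-19260944, plus strand): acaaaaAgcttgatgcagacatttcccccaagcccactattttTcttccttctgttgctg
Tcrg-C4 (chr13:19344558-19344617, plus strand): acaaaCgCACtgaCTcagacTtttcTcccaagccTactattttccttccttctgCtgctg

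Over their whole transcripts, Tcrg-C1 was 96.1% identical to Tcrg-C2 and 97.2% to Tcrg-C3, and 72.4% identical to Tcrg-C4. Of all stretches of 50 bases in Tcrg-C1, 34.2% also occurred in another member, against 25.4% for Tcrg-C2, 36.2% for Tcrg-C3 and 0% for Tcrg-C4. The division of counts among Tcrg-C1, Tcrg-C2 and Tcrg-C3 is therefore an estimate of the counting program, while Tcrg-C4 and the sum of the 4 genes depend less on it.

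The V segments that led the results are shown by the last 60 bases of the germline segment, where the joins begin. Capitals mark the codon of the conserved cysteine that ends the V framework. All are exonic and written 5′ to 3′ on their own strand.
Trgv2 (chr13:19336573-19336632, minus strand): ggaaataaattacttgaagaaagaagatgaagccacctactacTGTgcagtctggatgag
Tcrg-V3 (chr13:19243242-19243301, plus strand): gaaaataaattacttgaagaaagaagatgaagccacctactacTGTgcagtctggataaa
Tcrg-V4 (chr13:19185447-19185506, plus strand): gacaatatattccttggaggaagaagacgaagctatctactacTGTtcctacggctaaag
Tcrg-V7 (chr13:19178433-19178492, plus strand): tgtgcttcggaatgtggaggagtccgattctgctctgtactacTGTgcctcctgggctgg
Trdv1 (chr14:53882158-53882217, plus strand): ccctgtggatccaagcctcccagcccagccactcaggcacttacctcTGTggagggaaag
Trdv2-1 (chr14:53946601-53946660, plus strand): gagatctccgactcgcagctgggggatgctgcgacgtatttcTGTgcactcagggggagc
Trdv2-2 (chr14:53961543-53961602, plus strand): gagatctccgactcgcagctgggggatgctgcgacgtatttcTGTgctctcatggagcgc
Trdv5 (chr14:54148662-54148721, minus strand): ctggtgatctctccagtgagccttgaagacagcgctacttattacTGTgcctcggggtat

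Trgv2 and Tcrg-V3 resemble each other closely here, and 22.4% of the 50-base stretches of Tcrg-V3 also occurred in another member. For Trdv2-1 and Trdv2-2 these shares were 61.2% and 52.6%. Trdv5 lies in inverse orientation beyond Trdc (chr14:54142851-54148868, plus strand), and the 2 genes share 207 bases on opposite strands. Whether counting used the strand is not given in the sources used here, so reads of that stretch cannot be assigned to either gene with certainty.

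All 25 segments were accounted for. Of these, 16 had at least 100 counts over the 81 libraries: Tcrg-C4, Tcrg-C2, Tcrg-C1, Trdc, Trgv2, Tcrg-V4, Trdv5, Trgj4, Trdv1, Trgj2, Tcrg-V3, Trdv2-2, Tcrg-V7, Trdv2-1, Tcrg-V5 and Tcrg-C3. The other 9 had from 0 to 65 counts, and 3 of them (Trgj3, Trdd1 and Trdd2) had none. The J and D segments are short, at most 61 bases.

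Trdc, the constant gene of the delta chain, was present in every normal thymus and under 1 CPM in 17 of 31 lymphomas. In normal p53+/+ thymus it stood at 18.4 CPM (mouse 387), 83.1, 90.3, 145, 150.9, 161, 165 and 173 CPM. In untreated p53-/- lymphomas it was 0 in mice 120 and 202, and 0.076, 0.083, 0.092, 0.124, 1.74, 6.69, 70.6 and 97.1 CPM in mice 98, 157, 881, 325, 562, 637, 899 and 643. In doxycycline-treated p53-/- lymphomas it was 0.076, 0.105, 0.256, 3.16, 4.94, 6.84, 13.7, 23.6 and 60.5 CPM in mice 490, 553, 497, 663, 857, 869, 659, 870 and 653. Of these 19 lymphomas, only mouse 643 exceeded any normal thymus other than that of mouse 387. In p53+/- lymphomas Trdc was 0 in mice 24 and 280, and 0.011, 0.068, 0.200, 0.576, 0.612 and 0.655 CPM in mice 862, 328, 266, 309, 25 and 884. The remaining 4 of these lymphomas held 19.6 (mouse 908), 24.3 (mouse 894), 32.4 (mouse 905) and 320 CPM (mouse 903). Mouse 903 was the only lymphoma above every normal thymus. The 4 lymphomas with no Trdc count could have held up to 0.222 CPM (mouse 120), 0.052 CPM (mouse 202), 0.176 CPM (mouse 24) and 0.232 CPM (mouse 280), the level of 3 counts; such limits, and the intervals on shares below, cover counting error only.

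At a level of 1 CPM, 14 of 31 lymphomas kept Trdc: 4 of 10 untreated p53-/-, 6 of 9 treated p53-/- and 4 of 12 p53+/- lymphomas. The order of the groups depends on this level: at 0.5 CPM the counts were 4, 6 and 7 (17 in all), since p53+/- mice 309, 25 and 884 lay just under 1 CPM, and at 5 CPM they were 3, 4 and 4 (11 in all). Without mouse 881 the count at 1 CPM was 14 of 30. Of the 31 lymphomas, 23 had Trdc below every normal thymus, 7 lay within the normal range and 1 above it. Against the 7 normals without mouse 387, 29 were below and 1 within.

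**Figure D1:**
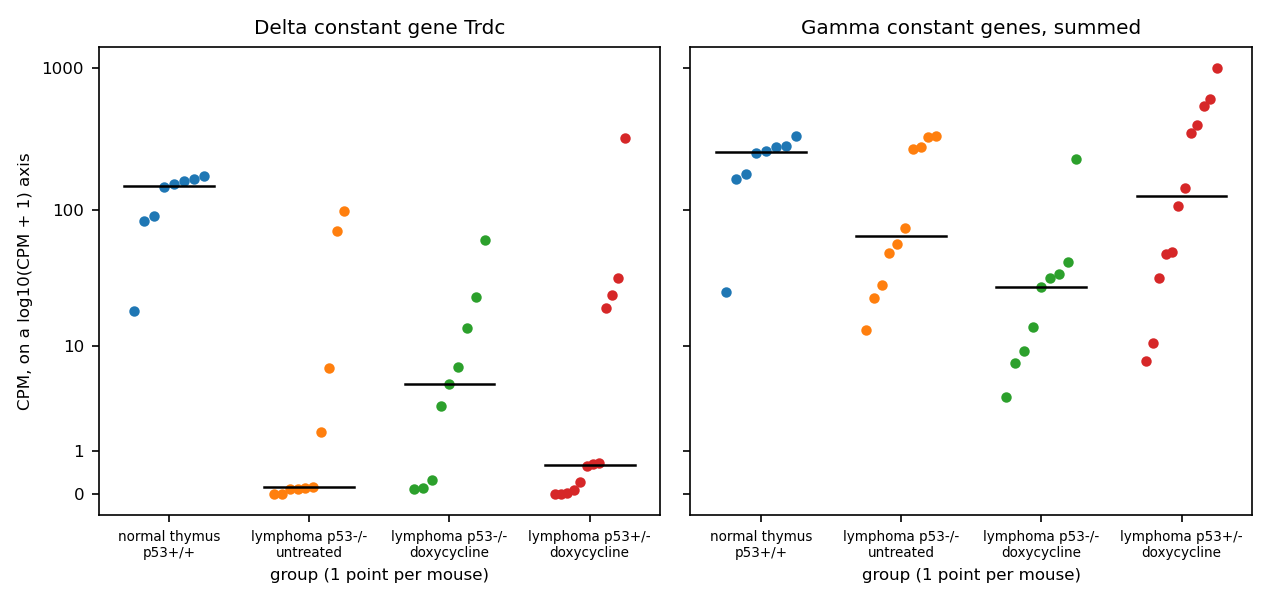
CPM of Trdc (left) and of the 4 gamma constant genes summed (right) on a log10(CPM + 1) axis, 1 point per mouse, with the group median as a line. Trdc falls under 1 CPM in 17 of 31 lymphomas, whereas every lymphoma has gamma constant counts of at least 3.8 CPM.

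The gamma constant genes behaved differently, with all 31 lymphomas above 1 CPM. Their sum was 25.5 CPM in normal mouse 387 and 164 to 333 CPM in the other 7 normal thymuses, with a median of 256 CPM over the 8. Untreated p53-/- lymphomas held 13.3 to 334 CPM (median 65.3), treated p53-/- lymphomas 3.8 to 231 CPM (median 27.8), and p53+/- lymphomas 7.58 to 1003 CPM (median 124). Of the 31 sums, 8 were below every normal, 17 within the range and 6 above, so that the groups overlapped. Against the 7 normals without mouse 387, 21 were below, 4 within and 6 above. The 6 above were mouse 899 (334 CPM) and the p53+/- mice 24 (347), 908 (399), 905 (541), 884 (611) and 903 (1003). The level of mouse 884 came from 1 biopsy with 1432 CPM. Its other 3 held 29.9, 120 and 30.8 CPM, above normal mouse 387 and below the other 7 normal thymuses.

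All 17 lymphomas with Trdc under 1 CPM therefore still had gamma constant transcripts, and in 16 of them the sum was at least 10 CPM. Trac, the alpha constant gene, was at least 10 CPM in 16 of the 17, the exception being mouse 881 (2.23 CPM). It was also above 10 CPM in all 14 lymphomas with Trdc of at least 1 CPM, the lowest being 26.4 CPM in mouse 643. This level of Trac therefore does not separate the 2 sets. Mouse 202 had no Trdc count in any of 4 biopsies, with 325 CPM of gamma constants and 221 CPM of Trac. Mouse 120 had no Trdc, 277 CPM of gamma constants and 297 CPM of Trac. Mouse 24 had no Trdc, 347 CPM of gamma constants and 256 CPM of Trac. The opposite pairing, Trdc of at least 10 CPM with gamma constants under 10 CPM, was seen in mouse 894, with 24.3 and 7.58 CPM, and mouse 659, with 13.7 and 9.24 CPM.

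Group comparisons were run with edgeR's quasi-likelihood test over all genes, with labelled sex as a covariate and a Benjamini-Hochberg adjusted p under 0.05 as the call. Only 11 of the 25 segments passed the filter on low counts against normal thymus, and 7 passed it among lymphomas. In doxycycline-treated p53-/- lymphomas, 4 of the 11 were called, where 52.1% of all genes tested were called (26.7% lower). Those 4, each with a negative log2 fold change, were Tcrg-C1, Tcrg-C2, Trdv1 and Trdv5. Trdv1 and Trdv5 did not pass the filter among lymphomas, and reached 1 CPM in 6 of 8 normal thymuses and 0 of 9 of these lymphomas. They entered the test mainly through normal thymus, which favoured the lower direction, so that nothing is read from the 4 having 1 direction. Tcrg-C1 ranged from 12.8 to 142 CPM in normal thymus (median 104) and from 0.215 to 27.1 CPM in these lymphomas (median 4.63), with 7 of 9 below every normal. Its log2 fold change was -3.47 (SE 1.02), with an edgeR adjusted p of 0.0046. Tcrg-C2 went from 9.56 to 154 CPM (median 107) in normal thymus and from 0.144 to 107 CPM (median 4.14) in the tumours, again with 7 of 9 below. Its log2 fold change was -3.28 (SE 1.29; edgeR adjusted p = 0.032). This call was lost without a low-count filter (adjusted p = 0.073), without the sex covariate (0.056) and with the first biopsy of each mouse (0.17).

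The delta V segments Trdv1 and Trdv5 were low in normal thymus and in treated p53-/- lymphomas. Trdv1 ran from 0.406 to 2.51 CPM in normal thymus and from 0 to 0.512 CPM in treated p53-/- lymphomas, where 8 of 9 were below every normal (log2 fold change -4.37, SE 1.54, edgeR adjusted p = 0.017). Trdv5 ran from 0.062 to 4.05 CPM in normal thymus and from 0 to 0.131 CPM in these tumours, with 7 of 9 below (log2 fold change -5.90, SE 2.18, edgeR adjusted p = 0.023). Neither passed the low-count filter when only these 2 groups were fitted, so that both went untested there. Trdc itself narrowly missed the threshold (log2 fold change -4.09, SE 1.77, edgeR adjusted p = 0.051). It passed in 7 alternatives: with limma voom on all biopsies (adjusted p = 2.8e-05), with only the 2 groups compared (0.0024), with DESeq2 (0.011), with the p53+/- normal thymus added (0.043), without scaling factors (0.045), without mouse 881 of another group (0.046) and without mouse 387 (0.0496). In the other 6 its adjusted p was 0.051 to 0.10.

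No segment was called in untreated p53-/- lymphomas (background 40.7% of all genes) or in p53+/- lymphomas (background 50.9%). At an unadjusted p under 0.05 there were 1 and 0 segments. DESeq2 called Trdv5 in each, with log2 fold changes of -5.31 and -4.55, where edgeR gave 0.20 (SE 1.55) and 0.57 (SE 2.48); the single mice 643 (9.84 CPM) and 903 (39.4 CPM) held most of the Trdv5 counts of their groups. Limma voom on all biopsies, with the mouse as a block, called 5 and 6 segments. Trdc was among them (log2 fold changes -7.40 and -6.05, limma adjusted p = 6.6e-06 and 1.8e-06). In untreated p53-/- lymphomas Trdv2-2, which also did not pass the filter among lymphomas, came nearest with edgeR: it was 0 to 0.929 CPM, against 0.051 to 4.48 CPM in normal thymus, with 8 of 10 below every normal (log2 fold change -3.27, SE 1.41, edgeR adjusted p = 0.062). It was called lower without scaling factors (adjusted p = 0.032), without the sex covariate (0.040), with only the 2 groups (0.015), with the p53+/- normal thymus added (0.049) and with limma voom (0.00031). In the other 8 alternatives, DESeq2 among them, its adjusted p was 0.059 to 0.23. In both comparisons Trdc had a median far below normal, 0.108 and 0.594 CPM against 148 CPM, with 8 of 10 and 8 of 12 lymphomas below every normal. The means were 17.6 ± 35.5 CPM (SD, n = 10) and 33.2 ± 91.1 CPM (SD, n = 12) against 123 ± 54.2 CPM (SD, n = 8). The log2 fold changes were -1.78 (SE 1.46; edgeR adjusted p = 0.34) and -2.64 (SE 1.65; edgeR adjusted p = 0.18). With single-biopsy mice only, Trdc was called in p53+/- lymphomas (edgeR adjusted p = 0.00076).

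Tcrg-C4 was not called in any comparison. It ranged from 3.20 to 46.7 CPM in normal thymus and from 0.100 to 712 CPM in the 31 lymphomas, of which 6 were below every normal, 14 within and 11 above. Its log2 fold change was 1.18 (SE 1.03) in untreated p53-/-, -0.92 (SE 1.09) in treated p53-/- and 1.76 (SE 1.05) in p53+/- lymphomas, with edgeR adjusted p of 0.37, 0.49 and 0.16. The median log2 fold change over the 11 segments was 0.25, -2.47 and 0.01 in the same order, beside 0.08, -0.04 and -0.001 over all genes tested. Of the 11, Trdv1, Trdv2-2, Trdv5 and Trgj2 did not pass the filter among lymphomas, and entry through normal thymus favours the lower direction. The median of -2.47 is the value of Trdv2-2 itself, so nothing is read from these medians. The 3 comparisons share their normal mice.

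**Figure D2:**
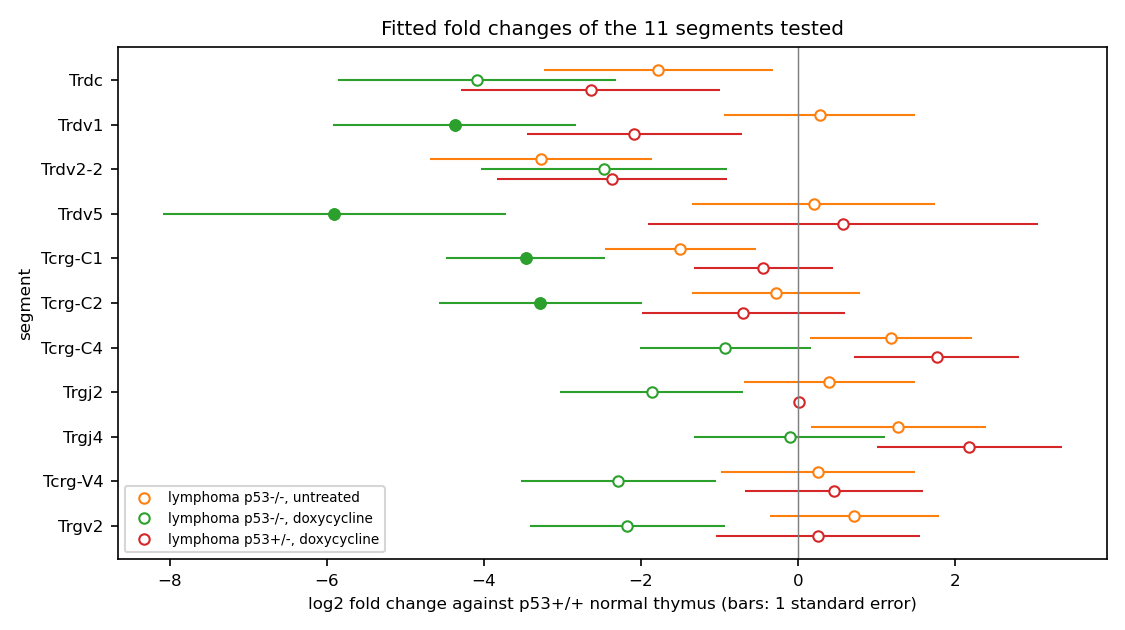
Log2 fold change (x axis) of the 11 segments tested (y axis) in each lymphoma group against p53+/+ normal thymus, with bars of 1 standard error; filled points passed the adjusted p of 0.05. The 4 filled points, all below 0, belong to treated p53-/- lymphomas; Trgj2 in p53+/- lymphomas has no bar because its test statistic was too near 0 to give an error.

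Among the lymphoma groups, none of the 7 segments tested was called. The background was 0% in each of the 3 comparisons, since edgeR called none of 16387 genes; DESeq2 and limma voom called no segment either. At an unadjusted p under 0.05, 2 segments passed in treated against untreated p53-/- lymphomas, 4 in p53+/- against p53-/- treated lymphomas, and 0 in p53+/- against untreated p53-/-. The pair lower in treated p53-/- lymphomas was Tcrg-C2 (log2 fold change -3.77, SE 1.52) and Trgv2 (-3.64, SE 1.5), each with an edgeR adjusted p of at least 0.35. The 4 were Tcrg-C1 (log2 fold change 3.04, SE 1.06), Tcrg-C4 (2.76, SE 1.07), Trgj4 (2.27, SE 1.04) and Tcrg-V4 (2.78, SE 1.33), all higher in p53+/- lymphomas. Each had an edgeR adjusted p of 0.937.

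The share of the top gamma V segment reached higher values in lymphomas than in normal thymus, over the 6 segments measured. Since Tcrg-V1 is not among them, these are not shares of all gamma V transcripts. In all 8 normal thymuses Trgv2 was the top gamma V segment by count, with 52% to 65.3% of gamma V counts (median 59.2%), and Tcrg-V4 came next. Of 31 lymphomas, 24 had at least 30 gamma V counts, and in these the top segment held 43.1% to 100% (median 86.7%). It held more than 90% in 10 of the 24 lymphomas and in 0 of 8 normals, while 6 of the 24 were no higher than the highest normal. Trgv2 led in 13 lymphomas, Tcrg-V4 in 9 and Tcrg-V7 in 2 by the summed counts. In mouse 325 the lead of Tcrg-V4 (53.9%) came from 1 biopsy, and Trgv2 led narrowly in the other 3. In mouse 869 Tcrg-V4 led the sum (43.1%), but Trgv2 led (47%) in the only biopsy with 30 gamma V counts. Divided by transcript length, the leading segment was the same in all 24 lymphomas and all 8 normals, with a median share of 86.2% and 55.5%. A share nearer 100% was also found at low depth: mice 643 and 309, both at 100%, had 40.1 and 80.4 gamma V counts (95% Wilson lower limits 91.2% and 95.4%).

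Examples span each of the leading segments. Mouse 120 had 57.2 CPM of Tcrg-V4, 97.8% of its gamma V counts (Wilson interval 96.6% to 98.7%). Mouse 202 had 39.8 CPM of Trgv2, at 95.2% (94.3% to 96.0%), and mouse 903 had 53.3 CPM of Trgv2, at 96.8% (96.2% to 97.3%). Normal thymus held 1.15 to 12.8 CPM of Trgv2 and 0.406 to 8.48 CPM of Tcrg-V4, so each of these 3 lay above every normal for its leading segment. Tcrg-V7, which was at most 0.831 CPM in normal thymus, led in mouse 328 (6.91 CPM, 89.8%, 83.3% to 94.4%) and mouse 157 (4.91 CPM, 44.9%, 36.5% to 53.2%). Tcrg-V3 was at 7.88 CPM in mouse 908, beside 34.2 CPM of Tcrg-V4, but 1 biopsy held 20.7 CPM of it and the other 3 held 1.05, 2.82 and 3.17 CPM. Tcrg-V5, the next segment in mouse 202, reached 1.13 CPM there, and Tcrg-V6 stayed at or below 0.357 CPM in all mice.

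**Figure D3:**
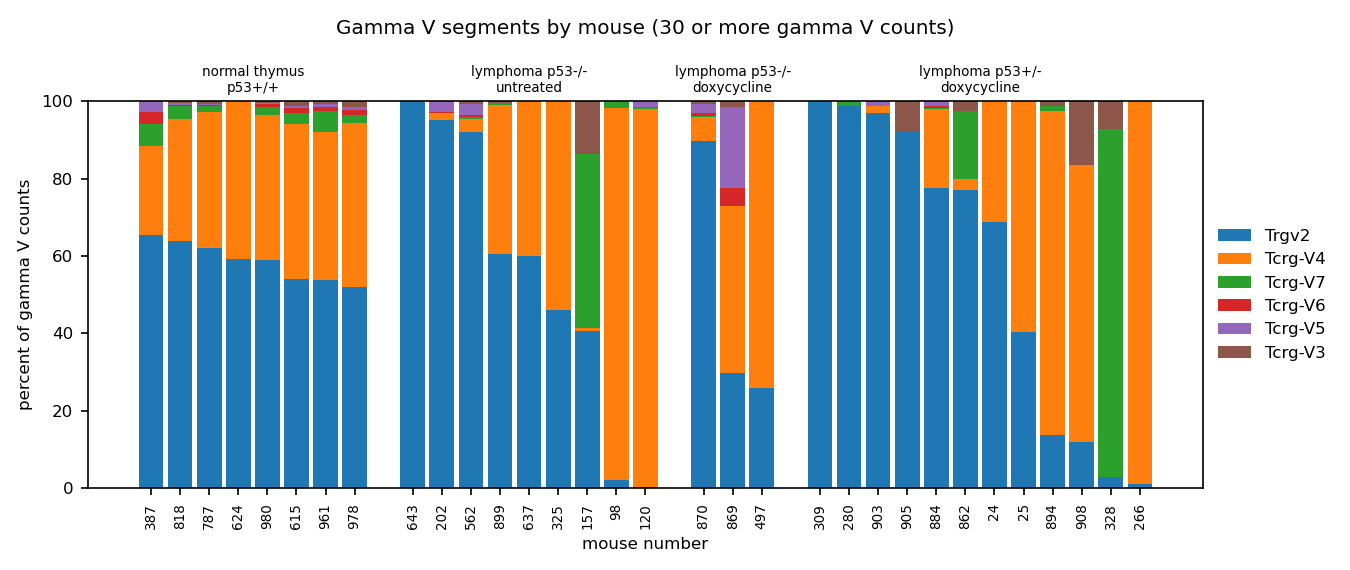
Share of gamma V counts (y axis, percent) taken by each of 6 gamma V segments, 1 bar per mouse with at least 30 gamma V counts. Normal thymus mixes Trgv2 and Tcrg-V4, and lymphomas range from mixtures such as mouse 157 to a single segment, such as Tcrg-V4 in mouse 266 and Trgv2 in mouse 280.

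Leaving Tcrg-C4 aside, the constant gene mostly went with the V segment of its own cluster. Of the 24 lymphomas, 23 had their leading gene among Tcrg-C1, Tcrg-C2 and Tcrg-C3 in the cluster of their top V segment; the exception was mouse 157, which was led by Tcrg-V7 (cluster 1) with Tcrg-C2 at 26.4 CPM and Tcrg-C1 at 20.4 CPM. Over all 4 constant genes, Tcrg-C4 was the leading one in 7 of the 24 (mice 637, 643, 899, 869, 328, 862 and 903), and the leading gene matched the V segment in 16. In mouse 869 this lead came from 1 of 4 biopsies, with 120 CPM of Tcrg-C4; in the other 3 Tcrg-C1 led with 2.29 to 4.51 CPM. In mouse 862 Tcrg-C4 led the sum, while Tcrg-C2 led in 3 of 5 biopsies. The cluster of the top V segment held 22% to 96% of gamma constant counts. In mouse 903, Trgv2 had 96.8% of the gamma V counts and Tcrg-C4 71% of the constant counts. Mouse 120, led by Tcrg-V4, had 221 CPM of Tcrg-C1 and 0.617 CPM of Tcrg-C2. Mouse 202, led by Trgv2, had 220 CPM of Tcrg-C2 and 2.74 CPM of Tcrg-C1. Mouse 266, led by Tcrg-V4, had 48 CPM of Tcrg-C1 and 1.93 CPM of Tcrg-C2, and mouse 280, led by Trgv2, had 95.8 CPM of Tcrg-C2 and 1.75 CPM of Tcrg-C1. These 4 tumours held Tcrg-C1 and Tcrg-C2 far apart, whereas the 2 genes lay at 66.9 to 142 CPM and 67.1 to 154 CPM in the 7 normal thymuses other than mouse 387. Tcrg-C3 exceeded 1 CPM in 1 lymphoma, mouse 157 (3.36 CPM), and reached 1.68 CPM in normal thymus.

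Tcrg-C4, whose cluster's V segment was not analysed here, took a larger share of gamma constant counts in most lymphomas. It held 10.8% to 18% in the 8 normal thymuses (median 14.3%) and 0.200% to 99.0% in the 31 lymphomas (median 34.3%). In 25 of 31 lymphomas the share was above that of every normal: 8 of 10 untreated p53-/-, 8 of 9 treated p53-/- and 9 of 12 p53+/- lymphomas. By level, in CPM, Tcrg-C4 was above every normal in 11 of 31 and below every normal in 6. Per transcript length, Tcrg-C2 led in 7 normals and Tcrg-C1 in 1. Among lymphomas Tcrg-C1 led in 12, Tcrg-C2 in 11 and Tcrg-C4 in 8. The highest Tcrg-C4 level, 712 CPM, was in mouse 903, beside 288 CPM of Tcrg-C2 and 8.28 CPM of Trgj4, the J segment of the same cluster. Trgj4 had 1378 counts in all, 43.4% of them from mouse 903.

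**Figure D4:**
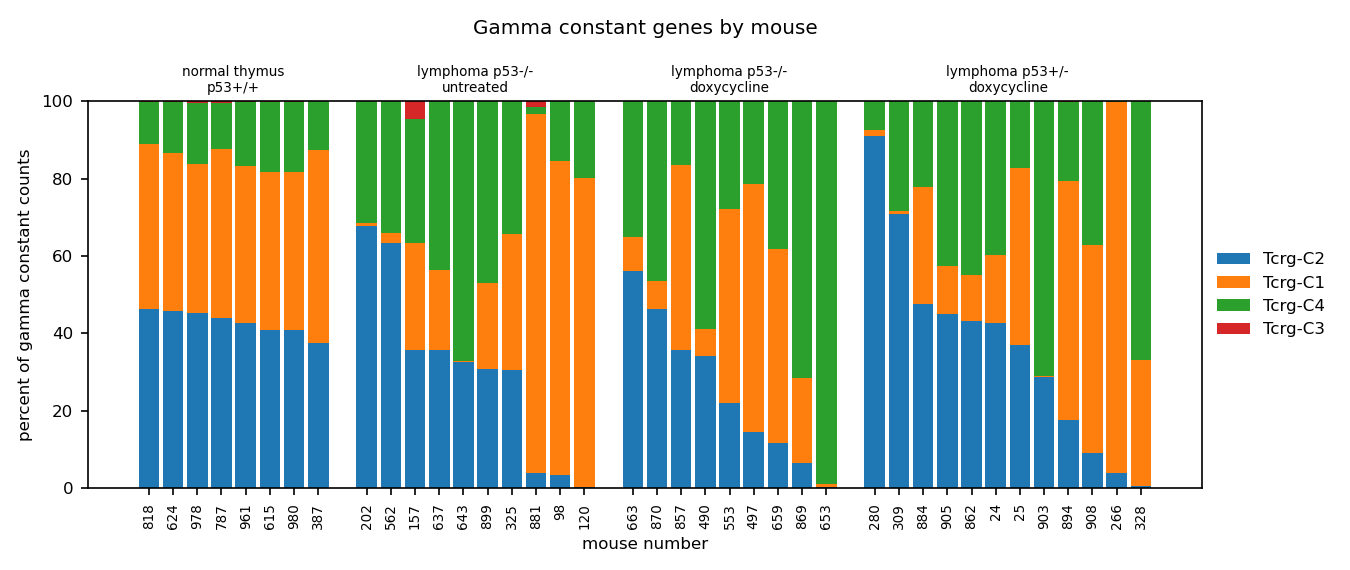
Share of gamma constant counts (y axis, percent) held by Tcrg-C1, Tcrg-C2, Tcrg-C3 and Tcrg-C4, 1 bar per mouse and all 39 mice of the 4 groups. Normal thymus holds Tcrg-C1 and Tcrg-C2 in like amounts with 10.8% to 18% of Tcrg-C4; 25 of 31 lymphomas have a larger share of Tcrg-C4 than any normal.

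Delta V segments were rarer. Only 10 of 31 lymphomas and 7 of 8 normal thymuses had 30 or more delta V counts. In the 7 normals the top segment held 32.5% to 50.7%, and it was Trdv5 in 3, Trdv1 in 2 and Trdv2-2 in 2. In the 10 lymphomas it held 34.2% to 99.7% and was Trdv1 in 3, Trdv2-2 in 3, Trdv5 in 3 and Trdv2-1 in 1. In mouse 903, Trdv5 took 92.7% (91.7% to 93.6%) at 39.4 CPM, which is 86.5% of all Trdv5 counts in the series. Mouse 643 had 9.84 CPM of Trdv5, 75.6% of its delta V counts (68.4% to 81.6%), and mouse 653 had 3.71 CPM of Trdv2-2, at 84.2% (74.5% to 90%). Mouse 894 had 2.11 CPM of Trdv1, at 89.1% (83.0% to 93.4%).

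Delta V and Trdc did not always go together: 2 lymphomas had at least 1 CPM of delta V segments with Trdc under 1 CPM. In mouse 325, Trdv1 stood at 12.3 CPM, 99.7% of delta V counts (99.1% to 99.9%), and at 9.27 to 18 CPM in each of 4 biopsies, while Trdc was 0.056 to 0.235 CPM in them. This tumour holds 59.1% of all Trdv1 counts and had 316 CPM of Trac. In mouse 266, delta V segments summed to 4.77 CPM with Trdc at 0.200 CPM. This tumour also had the highest level of 3 of the 10 alpha V segments that can join to delta (symbols with -dv): 226 CPM of Trav16d-dv11, 78.1 CPM of Trav6-7-dv9 and 5.74 CPM of Trav4-4-dv10, with 1270 CPM of Trac. These 3 stood at medians of 2.57, 0.675 and 1.49 CPM in normal thymus. Of the 7 dual-use segments tested against normal thymus, none was called higher, where 23.2%, 25.4% and 25.6% of all genes were in untreated p53-/-, treated p53-/- and p53+/- lymphomas. None was lower in untreated p53-/- and 1 in each of the other groups, where 17.6%, 26.7% and 25.3% of all genes were. The one lower in treated p53-/- lymphomas, chosen after its values were seen, was Trav21-dv12 (log2 fold change -3.61, SE 1.28, edgeR adjusted p = 0.018), and the one lower in p53+/- lymphomas was Trav14d-3-dv8 (log2 fold change -2.21, SE 0.83, edgeR adjusted p = 0.026).

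Biopsies of 1 tumour mostly shared their gamma segment, and their levels varied. In 13 tumours with 4 or 5 biopsies, the SD of log2(CPM + 1) of Trdc was 1.24 within tumours and 2.73 between them. For the gamma constants it was 1.31 and 2.59. Of 33 biopsies in the 9 tumours with at least 2 biopsies of 30 gamma V counts, 32 had the tumour's common top segment, and 8 of 9 tumours had 1 top segment throughout. The common segment was Trgv2 in each of the 9 but mouse 908 (Tcrg-V4). Trgv2 also led in all 8 normal thymuses, so that sharing it does not by itself mark a tumour. For delta V it was 14 of 16 biopsies, and 3 of 5 tumours.

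Trdc was found in some biopsies and not others in 3 treated p53-/- lymphomas. Mouse 870 held 0.337, 0, 74.7 and 10.3 CPM. In mouse 869 the biopsies held 0, 41.9, 0 and 0.058 CPM, and the biopsy with 41.9 CPM also had 120 CPM of Tcrg-C4 against 0.115 to 0.942 CPM in the other 3. That biopsy had 563 CPM of Trac against 917 to 1004 CPM, and 300 CPM of Cd3e, a chain of the CD3 complex, against 112 to 142 CPM. It also had more of the B-cell gene Cd79a, 8.90 CPM against 0.231 to 0.706 CPM, whose part was not tested. In mouse 857 the biopsies held 16.5, 0, 0 and 1.17 CPM in libraries of 1030400 to 5026851 counts, and the level of 3 counts in the shallowest is 2.91 CPM. The keeping of Trdc at 1 CPM in mice 857, 869 and 870 thus rests on 1, 1 and 2 of their 4 biopsies, since the 1.17 CPM of mouse 857 is under the level of 3 counts in its library (1.75 CPM). By contrast, mouse 903 had 301 to 356 CPM, mouse 894 had 18.6 to 29.2 CPM, mouse 905 had 20.2 to 44.7 CPM and mouse 899 had 37.7 to 105 CPM in every biopsy. Gamma constants varied widely in mouse 884, from 29.9 to 1432 CPM.

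**Figure D5:**
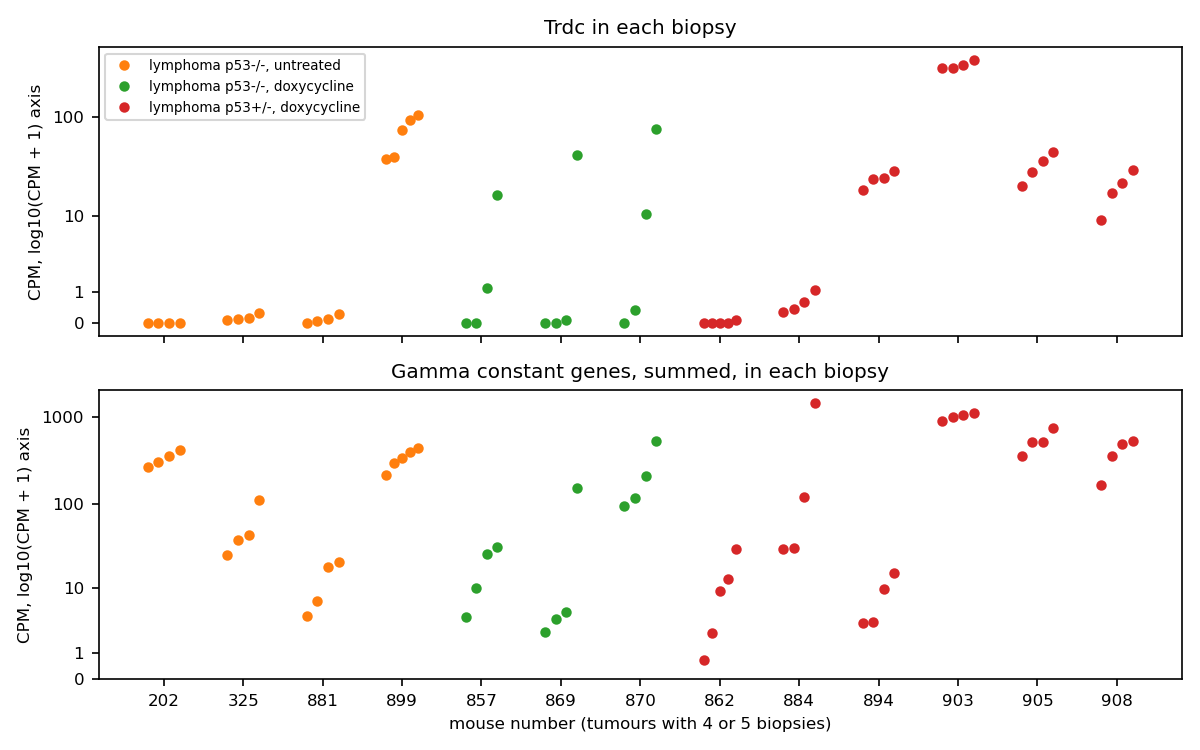
CPM of Trdc (top) and of the summed gamma constant genes (bottom) in each biopsy of 13 lymphomas, on a log10(CPM + 1) axis, with 1 point per biopsy and colour for the group. Points of mice 869 and 870 spread from 0 to 41.9 and 74.7 CPM of Trdc, while those of mouse 903 lie between 301 and 356 CPM.

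Trdc was also set against the other receptor and stage genes across the 31 lymphoma mice. Over 6 relations with log2 CPM values, none passed Benjamini-Hochberg adjustment. Pearson's r was 0.18 with the gamma constants (permutation p = 0.33, adjusted 0.33; Spearman's rho 0.07, p = 0.70). With Trac r was -0.20 (permutation p = 0.30, adjusted 0.33; rho -0.30, p = 0.10); it was -0.38 without mouse 881 (permutation p = 0.038, adjusted 0.080) and -0.52 over the 18 single-biopsy mice (permutation p = 0.029, adjusted 0.17). With Ptcra, the pre-T-cell receptor alpha chain, r was 0.41 (permutation p = 0.022, adjusted 0.084; rho 0.26, p = 0.16). It was 0.35 with the recombinase gene Rag1 (permutation p = 0.049, adjusted 0.098; rho 0.21, p = 0.26), 0.39 with Cd8a (p = 0.028, adjusted 0.084; rho 0.32, p = 0.078) and 0.27 with Il2ra (p = 0.13, adjusted 0.20; rho 0.17, p = 0.37). Without the 2 mice farthest from the median Trdc, these became -0.003, -0.37, 0.30, 0.18, 0.31 and 0.30 in the same order.

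Within groups, 2 of 18 relations passed adjustment over the 6 of their group. In untreated p53-/- lymphomas r with Ptcra was 0.89 (n = 10, permutation p = 0.00015, adjusted 0.0009; rho 0.94) and 0.84 without the 2 farthest mice. It was -0.24 in treated p53-/- (n = 9) and 0.12 in p53+/- lymphomas (n = 12). In treated p53-/- lymphomas r with Rag1 was -0.91 (n = 9, exact permutation p = 0.0016, adjusted 0.0094; rho -0.90) and -0.93 without the 2 farthest mice, against 0.55 in untreated p53-/- and 0.19 in p53+/- lymphomas. Whether these differ between groups was not tested. The 5 genes, receptor segments aside, whose log2 CPM ranked most like Trdc over the 31 lymphomas were Rasgrp4 (rho 0.70), Smim15 (0.66), G3bp2 (0.65), Recql (0.63) and Uso1 (0.61), of 11099 genes ranked. These are the highest of a ranking and carry no test.

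Genes that go with gamma-delta receptors were read from fixed lists, against normal thymus. Counts are given first for p53-/- lymphomas without treatment, then for p53-/- with doxycycline, then for p53+/-. Of all genes tested, 23.2%, 25.4% and 25.6% were called higher and 17.6%, 26.7% and 25.3% lower. Of 23 gamma-delta lineage genes tested, 6, 4 and 5 were higher and 0, 3 and 3 lower. Among the most abundant, Gzma, a granzyme of killer lymphocytes, was called higher in all 3 (log2 fold changes 2.14, 2.13 and 2.89, SE 0.73, 0.75 and 0.76, edgeR adjusted p = 0.019, 0.018 and 0.0018), while Cd27 and Sox4 were not called in any. In untreated p53-/- lymphomas the median of Gzma was 59.2 CPM (0.481 to 670), near the 44.6 CPM (5.98 to 67.9) of normal thymus. Gzma is also a marker of natural killer cells. A list of 7 such markers, Gzma among them, summed to 26.8 to 82.9 CPM in normal thymus and 6.10 to 1166 CPM in lymphomas. Gzma alone reached 1163 CPM in p53+/- lymphomas, so the sum cannot be read apart from it. Of the 7 genes, 5 had a median of at least 1 CPM in normal thymus, against 3, 2 and 3 in the lymphoma groups. Chosen after their values were seen, Cd163l1 (2.77 to 4.0) and Il17f (2.61 to 3.54) were higher in all 3 groups. The lower genes, also named after their values were seen, were Egr3, Ccr6 and Zbtb16 in both doxycycline groups (-2.09 to -3.48). Sox13, a transcription factor of the gamma-delta lineage, was higher in untreated p53-/- (2.17) and p53+/- (2.56) lymphomas, and Etv5 in the same groups (3.23 and 3.03). In untreated p53-/- lymphomas only mice 157 and 98 (163 and 62.6 CPM) had Sox13 above every normal. Tbx21 was higher in treated p53-/- (1.27) and 5830411N06Rik in untreated p53-/- (2.67) lymphomas. The lymphomas of mice 884 and 157, with 413 and 163 CPM of Sox13 against 3.39 to 12.9 CPM in normal thymus, had Trdc of 0.655 and 0.083 CPM. In mouse 884, 1 biopsy held 961 CPM of Sox13 and the other 3 held 36.2, 76 and 38.1 CPM.

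In the list of the alpha-beta receptor, CD3 and the pre-receptor, 0, 1 and 1 of 8 genes were higher and 1, 0 and 0 lower. Trbc2, Trbc1, Cd3d and Cd3g were not called. Those called, named after their values were seen, were Cd247, lower in untreated p53-/- lymphomas (log2 fold change -1.23, SE 0.40), and Ptcra, higher in the other 2 (2.42, SE 0.96, and 2.20, SE 0.93). Of 12 recombination genes, 1, 5 and 4 were higher and 2, 0 and 0 lower. Rag1 was called in none, Xrcc6 and Hmgb2 were higher in the 2 treated groups, and, by the same later choice, Xrcc5 was higher in all 3, Hmgb1 in the treated groups and Prkdc in treated p53-/- lymphomas, and Rag2 was lower in untreated p53-/- lymphomas (-2.23). Dntt, which adds bases at the joins, was lower in untreated p53-/- lymphomas (log2 fold change -2.01, SE 0.80, edgeR adjusted p = 0.043). Of 7 stage genes, none was higher and 4, 3 and 4 were lower, among them Cd4 (log2 fold changes -2.35, -2.49 and -2.14) and Cd5, with Cd69, in all 3 groups and Cd8b1 in untreated p53-/- and p53+/- lymphomas. Of 7 ligands and receptors of unconventional lymphocytes, 0, 0 and 1 were higher (H2-T10) and 0, 2 and 1 lower, Klrk1 being lower in both treated groups (-3.63 and -2.84) and Klrd1 in treated p53-/- lymphomas (-3.76). H2-T22 and Fcer1g were not called. Among the lymphoma groups no gene of these lists was called.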

How the data were processed

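The authors deposited a table of RSEM expected counts per gene, 1 column per library. Per the submitters' processing notes, CASAVA 1.8, fastp, STAR 2.7.2b and RSEM 1.1.17 were used with build mm10; the annotation and strand setting are not given in the sources used here. RSEM divides reads that fit several genes, so like segments share counts, and 14.3% of the deposited values were not whole. Biopsies were summed per mouse and rounded. CPM is the count per 1000000 counts of a mouse or biopsy. Groups came from the labels; mice are separate animals, and no replicate numbers link groups. Tests used edgeR 4.0.16 (TMM, group filter on low counts, robust quasi-likelihood, labelled sex) in R 4.3.3 over 17841 genes against normal thymus and 16387 among lymphomas, checked on simulated counts. A standard error is the fold change divided by the root of the F statistic. Relations used 100000 permutations, or all of them under 10 mice, on log2 CPM with a prior count of 2. V shares need 30 counts; Wilson intervals (95%) used rounded counts. Alternatives were DESeq2 1.42.0, limma 3.58.1 voom on all biopsies, other scaling, filters, covariates and subsets of mice.

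The segments, lists and tests were chosen with earlier results of these data known. Segments with 100 counts in all are named, as are at most the 4 most abundant genes of a list and the 5 genes most like Trdc; genes outside this rule are marked, and 1 gene that the rule names is not reported here. GENCODE M21 (GRCm38) gave coordinates and sequences.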

Additional observations from a re-analysis of the deposited data

Results flagged for a closer look

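One normal thymus stood apart from the other 7 in each of the quantities examined. In mouse 387 Trdc was 18.4 CPM, Tcrg-C1 12.8 CPM, Tcrg-C2 9.56 CPM, Tcrg-C4 3.20 CPM and the gamma constant genes together 25.5 CPM, each the lowest of the group. On log2(CPM + 1), its gap to the next mouse took 0.668, 0.683, 0.694, 0.724 and 0.722 of the range of the group in that order, above the 95% critical value of 0.526 for 8 mice. In all, 15 groups were examined this way, and chance alone marks about 5% of groups; the 5 marks are of 1 mouse and not independent. Trac in this mouse was 53.2 CPM against 252 to 432 CPM in the other 7, and Cd3e 51.9 CPM against 209 to 456 CPM. Its T-lineage, B-lineage and fat markers also stood apart from the other normals, and their part in these values was not tested.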

How the results depend on the processing

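Segments called in untreated p53-/- lymphomas against normal thymus rose from 0 to 1 with DESeq2, without scaling factors, without the sex covariate, with the p53+/- normal thymus added and with only the 2 groups compared, and to 5 with limma voom on all biopsies. In treated p53-/- lymphomas they went from 4 to 8 with voom and 7 without a low-count filter, to 6 without mouse 387 and with single-biopsy mice only, and to 3 with the first biopsy of each mouse and without the sex covariate, Tcrg-C2 being lost in both. In p53+/- lymphomas they rose from 0 to 1 with DESeq2 and without mouse 387, 2 without a filter and with single-biopsy mice only, and 6 with voom. The cause was not tested. No alternative called a segment among lymphomas. Among Trdc and the gamma constants, fold changes that turned sign, none of them called, were Tcrg-C4 in untreated p53-/- lymphomas (-0.70 with voom), Tcrg-C1 in p53+/- lymphomas (0.046 with the first biopsy), and Tcrg-C2 in p53+/- lymphomas (0.20 without the sex covariate, 0.80 with sex from expression, 0.0057 with the first biopsy). Trdv5 turned from 0.20 and 0.57 in untreated p53-/- and p53+/- lymphomas to -5.31 and -4.55 with DESeq2 and -3.95 and -3.09 with voom, all 4 called, and to -7.38 in p53+/- lymphomas with single-biopsy mice only (edgeR adjusted p = 0.011). In untreated p53-/- lymphomas it was also negative, and not called, without scaling factors (-0.56), without the sex covariate (-0.035) and with sex from expression (-0.0083). With a prior count of 0.5, r of Trdc with Ptcra, Rag1 and Cd8a was 0.42, 0.40 and 0.40 and passed (adjusted permutation p = 0.0467 each). With single-biopsy mice only, r of Trdc with the gamma constants was -0.26. Median levels, shares and the count of all lymphomas with Trdc moved by less than the spread between mice or by less than 1.5 times in the alternatives run. By group, the p53+/- count rose from 4 to 7 of 12 at 0.5 CPM, and the treated p53-/- count fell from 6 to 4 of 9 at 5 CPM. In the shallowest biopsy, of 1030400 counts, a Trdc count of 0 allows a level of up to 2.91 CPM. No paired analysis was possible because the groups share no mouse numbers.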

Other observations

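The single p53+/- normal thymus, of mouse 819, entered the comparisons only as an alternative, added to the normal group. It held 154 CPM of Trdc, 98.3 CPM of Tcrg-C1, 108 CPM of Tcrg-C2, 38.2 CPM of Tcrg-C4 and 245 CPM of gamma constants, each within the range of the 8 p53+/+ thymuses. Trgv2 led its gamma V counts with 62.6% (95% Wilson interval 57.7% to 67.3%), as in those 8, and Trdv1 led its delta V counts with 41.7% (33% to 51.2%).

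Per kilobase of transcript, Trdc ran from 4.77 to 44.8 CPM in the 8 normal thymuses (median 38.3) and from 0 to 82.9 CPM in the 31 lymphomas (median 0.158). The 4 gamma constants together ran from 27.5 to 360 CPM per kilobase in normal thymus (median 275) and from 4.05 to 1041 in lymphomas (median 51.8).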
